A study of Callithrix jacchus with 5 samples.

Results

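ACTA2, TAGLN, CNN1, TPM1, MYH11, VIM and MICAL2 are genes of the contractile and structural cytoskeleton that fibroblasts are known for. They were taken by name, and each of the 7 matched 1 gene identifier of the 30811 in the count table. Read counts per gene came from RNA sequencing of 5 libraries of cultured marmoset cells (Callithrix jacchus, a New World primate). There was 1 library of fibroblasts (E01F, P number 1 in its title). Embryonic stem (ES) cells gave 3 libraries, each of a line of its own: No40 (P number 63), DSY127 (P number 17) and No20 (P number 45). The remaining library came from induced pluripotent stem (iPS) cells, made from fibroblasts with RNA as the reprogramming agent according to the series title. The labels give no treatment, genotype, strain, sex or age for any of these cells, and do not say whether the sequenced fibroblasts were the parents of the iPS cells. Nor do they say at which growth state or density the cultures were collected.

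A contractile fibroblast pulls on its surroundings through stress fibres, bundles of actin filaments moved by myosin and anchored at focal adhesions. Many genes of this machinery are transcribed by serum response factor (SRF) together with its actin-sensing cofactors, the MRTF proteins, and in smooth muscle also with myocardin. TGF-beta is the best known inducer of the contractile state, and vimentin filaments form a second network beside the actin fibres. Levels are given as CPM, read counts divided by library sizes scaled by TMM, as means ± SD where the 3 ES lines are summarised. Fold changes are on the log2 scale with their standard errors. Adjusted p-values come from the edgeR quasi-likelihood test over all genes, and a gene was called when its adjusted p was under 0.05. The fibroblast and iPS groups are single libraries, so the spread in each test came from the 3 ES lines.

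Library totals ran from 34111715 to 58601185 counts in the fibroblast and ES libraries, and the iPS library was much shallower at 5746449. A count of 3 stood for 0.0610 to 0.0834 CPM in the fibroblast and ES libraries and for 0.507 CPM in the iPS library. The labels were matched by defining genes. COL1A1, a chain of type I collagen, stood at 32526 CPM in fibroblasts against 862 ± 348 CPM over the ES lines, and 10 of the 11 measured fibroblast markers rose. POU5F1, a core pluripotency factor, stood at 1.64 CPM in fibroblasts, 1425 ± 301 CPM over the ES lines and 1286 CPM in iPS cells, and all 6 measured pluripotent cell markers fell in the fibroblast library. Of 17462 genes tested, fibroblasts had 1537 called higher than the ES lines and 1620 lower (9.28%). Total counts instead of TMM factors gave 1066 higher and 2016 lower and shifted the median of all log2 fold changes by -0.38.

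All 7 genes passed the filter on low counts, and all stood higher in the fibroblast library than in any ES line. A position above all 3 ES lines was held by 35.4% of all genes tested. In the test against the ES lines 6 of the 7 rose, every gene except MYH11, while 8.80% of all genes tested were called higher. At an unadjusted p under 0.05 all 7 were higher, with 15.7% of all genes tested. The median log2 fold change was 3.94 over the 7 genes and -0.15 over all genes tested. Together the 7 genes took 1.64% of the fibroblast counts, 0.0950%, 0.214% and 0.249% of the counts of No40, DSY127 and No20, and 0.199% of the iPS counts. The genes were chosen with their fibroblast levels known, so these counts describe them and carry no further test. In cultures sequenced as a whole, fewer contractile cells and less RNA per cell cannot be told apart.

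**Figure D1:**
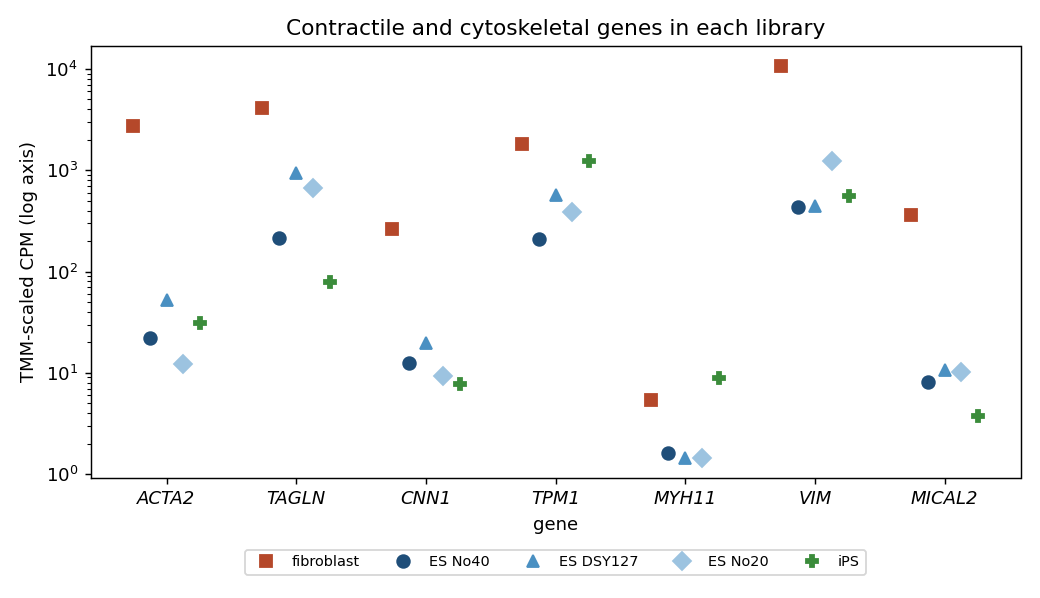
TMM-scaled CPM of the 7 genes in each of the 5 libraries, on a log axis, with 1 point per library and no error bars. The fibroblast library lies above all 3 ES lines for every gene, and the iPS library lies above them for TPM1 and MYH11 and below them for TAGLN, CNN1 and MICAL2.

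The actin of the set is ACTA2, smooth muscle alpha-actin, the usual marker of the contractile fibroblast state. ACTA2 stood at 2733 CPM in the fibroblast library, at 21.8 CPM in No40, 52.1 CPM in DSY127 and 12.2 CPM in No20, and at 30.8 CPM in the iPS library. The fibroblast level was thus 52.4-fold above the highest ES line, while the iPS level lay inside the ES range. ACTA2 showed the largest rise of the 7 genes (log2 fold change 6.57 ± 0.71, adjusted p = 0.0030), and the value was 6.31 without No20 and 7.42 without DSY127. The iPS library differed from the ES lines by 0.10 ± 0.74 (adjusted p = 0.984), less than the spread between the lines. ACTA2 (ENSCJAG00000005576) spans 75547109 to 75600424 on the minus strand of chromosome 12. The sources used here do not name the genome build of these and all later coordinates. Its span runs into that of FAS, a death receptor gene on the other strand, but no exon base is shared.

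Per gene length, the actins could be set against each other. Length-adjusted levels are counts per kilobase of gene model, scaled to the same total in each library. ACTA2 held 32.6% of the length-adjusted level of 5 measured actins in the fibroblast library, 0.402%, 1.44% and 0.357% in No40, DSY127 and No20, and 1.13% in the iPS library. ACTG1, cytoplasmic gamma-actin, held 65.3% in the fibroblast library and 93.0% to 99.2% in the ES lines. ACTG1 itself did not pass (log2 fold change 0.44 ± 0.38, adjusted p = 0.456). ACTG2, the enteric smooth muscle actin, stood at 155 CPM in fibroblasts against 16.3 ± 12.7 CPM over the ES lines and rose (3.25 ± 0.85, adjusted p = 0.0422), though it did not pass with upper-quartile factors or total counts. The skeletal and cardiac actins ACTA1 and ACTC1 were low in fibroblasts, at 12.8 and 14.1 CPM, and did not pass. ACTB, the cytoplasmic beta-actin gene, is not among the 5, since no identifier matched its symbol. The shares are therefore of these 5 genes and not of all actin. Actin genes are close to identical in coding sequence, and the sources used here do not say how reads matching several of them were counted, so shares among them are uncertain.

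TAGLN and CNN1 encode transgelin and calponin 1, related actin-binding proteins that stabilise filaments and mark smooth muscle and contractile fibroblasts. TAGLN stood at 4124 CPM in the fibroblast library, at 214, 931 and 663 CPM in No40, DSY127 and No20, and at 79.1 CPM in the iPS library. The fibroblast library thus lay above all 3 ES lines, as for 35.4% of all genes tested. The iPS library lay below all 3, as for 31.5% of all genes tested, and the lowest ES line was 2.71-fold above it. The rise in fibroblasts passed (log2 fold change 2.77 ± 0.65, adjusted p = 0.0300). The lower iPS value did not pass after adjustment (-2.93 ± 0.87, unadjusted p = 0.0125, adjusted p = 0.362), although DESeq2 gave an adjusted p of 0.00339 and limma voom 0.960.

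CNN1 stood at 265 CPM in the fibroblast library, at 12.6, 19.8 and 9.40 CPM in No40, DSY127 and No20, and at 7.78 CPM in the iPS library. The fibroblast level was 13.4-fold above the highest ES line. The iPS level was the lowest of the 5, but its 95% Poisson interval of 5.69 to 10.4 CPM, from 46 counts, included the level of No20. CNN1 rose in fibroblasts (4.25 ± 0.44, adjusted p = 0.00277), and the iPS difference of -0.84 ± 0.54 did not pass (adjusted p = 0.731).

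Both genes took a larger share of their measured relatives in the fibroblast library than in any other. Of the length-adjusted level of 3 transgelins and 2 calponins, TAGLN held 75.4% and CNN1 4.57% in the fibroblast library. TAGLN held 16.9%, 40.8% and 31.4% in No40, DSY127 and No20, and 7.76% in the iPS library. TAGLN2, a broadly expressed transgelin, held 8.36% in the fibroblast library and 40.5% to 51.8% in the ES lines, and it did not pass (log2 fold change -0.96 ± 0.41, adjusted p = 0.151). CNN3, the acidic calponin found in many non-muscle cells, stood at 822 CPM against 478 ± 37.7 CPM and did not pass either (0.78 ± 0.30, adjusted p = 0.120). TAGLN (ENSCJAG00000012755) spans 14785196 to 14790971 on the plus strand of chromosome 11, and CNN1 (ENSCJAG00000005530) spans 10981440 to 10992575 on the plus strand of chromosome 22. CNN1 lies within the span of the zinc finger gene ZNF441 on the same strand, with no shared exon base.

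TPM1 encodes a tropomyosin, a coiled-coil protein that lies along actin filaments and governs the access of myosin. TPM1 stood at 1828 CPM in the fibroblast library, at 211, 569 and 385 CPM in No40, DSY127 and No20, and at 1247 CPM in the iPS library. The iPS level was 2.19-fold above the highest ES line and 1.47-fold below the fibroblast level. TPM1 rose in fibroblasts (log2 fold change 2.24 ± 0.49, adjusted p = 0.0249). In the iPS library the difference was 1.68 ± 0.50, with an unadjusted p of 0.0124 that did not pass after adjustment (adjusted p = 0.361). The log2 ratio of the fibroblast to the iPS level was 0.55 with TMM factors and 0.21 with total counts.

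Among the 4 tropomyosin genes, TPM1 held 35.9% of the length-adjusted level in the fibroblast library, 19.8%, 37.0% and 24.1% in No40, DSY127 and No20, and 51.4% in the iPS library. The iPS library thus had the largest TPM1 share of the 5 libraries. TPM2, the tropomyosin of smooth and slow skeletal muscle, stood at 1032 CPM in fibroblasts, 70.5 ± 32.5 CPM over the ES lines and 198 CPM in iPS cells. It rose in fibroblasts (3.87 ± 0.51, adjusted p = 0.00503). Its iPS value lay above all 3 ES lines, a position held by 26.5% of all genes tested. That difference did not pass after adjustment (1.49 ± 0.52, unadjusted p = 0.0257, adjusted p = 0.482). TPM4, a cytoplasmic tropomyosin, rose by less (1.24 ± 0.32, adjusted p = 0.0390), a call that was lost without No40 or DSY127 and with upper-quartile factors or total counts. TPM3 did not pass (0.38 ± 0.38, adjusted p = 0.526). TPM1 (ENSCJAG00000004355) spans 5429065 to 5458631 on the plus strand of chromosome 10. The counts are per gene, so the muscle and non-muscle transcripts that each tropomyosin gene makes are summed.

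The motor of the set is MYH11, the smooth muscle myosin heavy chain, which marks differentiated smooth muscle. MYH11 stood at 5.42 CPM in the fibroblast library, at 1.63, 1.45 and 1.44 CPM in No40, DSY127 and No20, and at 8.79 CPM in the iPS library. Here the iPS library was highest, 5.41-fold above the highest ES line, while the ES lines lay close together. Its counts were 258 in the fibroblast library, 80, 52 and 63 in the ES lines and 52 in the iPS library, where the 95% Poisson interval ran from 6.56 to 11.5 CPM. MYH11 did not pass in the fibroblast comparison (log2 fold change 1.85 ± 0.59, adjusted p = 0.0769), with 1 of 11 alternatives, DESeq2, calling it (adjusted p = 0.0346) along with 29.6% of all genes to which it gave an adjusted p. In the iPS comparison it had the largest difference of the 7 genes upward (2.54 ± 0.60, unadjusted p = 0.0042, adjusted p = 0.218), called with DESeq2 alone (adjusted p = 0.0275).

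MYH11 (ENSCJAG00000005543) spans 11512669 to 11678229 on the plus strand of chromosome 12. It shares 477 exon bases, 6.22% of its gene model, with NDE1 on the minus strand, and the counting is not stated to use strand. NDE1, a dynein regulator of mitosis and neuronal migration, stood at 104 CPM in fibroblasts, at 149, 70.3 and 87.7 CPM in No40, DSY127 and No20, and 81.0 CPM in the iPS library. Its level in the iPS library was therefore inside the ES range. Per gene length, MYH11 was a trace among 4 class II myosin heavy chains, with 0.0915% of their level in the fibroblast library, 0.0812% to 0.168% in the ES lines and 0.658% in the iPS library. MYH9, the main non-muscle heavy chain of fibroblasts, held 89.3% in the fibroblast library, 13.9% in No40, and 68.4% and 66.4% in DSY127 and No20. MYH9 stood at 4527 CPM against 115, 1041 and 941 CPM in those lines and did not pass (2.70 ± 0.91, adjusted p = 0.0881). MYH14, a non-muscle heavy chain of epithelia, fell (-6.07 ± 0.98, adjusted p = 0.00932), and epithelial markers fell with it in 5 of 6 genes tested. Of all genes tested 9.28% were called lower.

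VIM encodes vimentin, the intermediate filament protein of mesenchymal cells. VIM stood at 10815 CPM in the fibroblast library, at 429, 448 and 1240.2 CPM in No40, DSY127 and No20, and at 560.0 CPM in the iPS library. The fibroblast level was 8.72-fold above the highest ES line, and the iPS level lay between DSY127 and No20. VIM rose in fibroblasts (log2 fold change 3.94 ± 0.58, adjusted p = 0.00725), by 3.73 without No40 and by 4.74 without No20. In the iPS library VIM differed by -0.33 ± 0.65 (adjusted p = 0.913). VIM (ENSCJAG00000008688) spans 15003284 to 15012889 on the plus strand of chromosome 7, with no overlapping gene.

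Beside VIM, the other filament genes moved in both directions. LMNA, which encodes lamins A and C of the nuclear envelope, stood at 1217 CPM against 61.8 ± 11.6 CPM and rose (4.30 ± 0.32, adjusted p = 0.00148). PLEC, a cross-linker of intermediate filaments, rose too (2.15 ± 0.35, adjusted p = 0.00959). NES and INA, filament proteins of neural progenitors and neurons, fell (-3.59 ± 0.69 and -4.84 ± 1.25, adjusted p = 0.0167 and 0.0406), and neither passed without No40, nor INA with limma voom. Of the length-adjusted level of VIM, NES and SYNM, VIM held 99.8% in the fibroblast library, 58.5%, 52.9% and 89.4% in No40, DSY127 and No20, and 70.7% in the iPS library. Other measured filament genes are not in this sum. In DSY127, INA, NEFL, NEFM and KRT7 had length-adjusted levels of 172, 40.8, 130 and 262, against 343 for VIM. In all, 2 genes rose and 2 fell of 12 tested in the list of intermediate filaments and lamins, whose median log2 fold change was -1.65. Of all genes tested 8.80% rose and 9.28% fell.

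MICAL2 encodes a flavin-dependent monooxygenase that oxidises actin, and in human and mouse cells its nuclear activity raises transcription by SRF with MRTF. MICAL2 stood at 361 CPM in the fibroblast library, at 8.19, 10.7 and 10.2 CPM in No40, DSY127 and No20, and at 3.72 CPM in the iPS library. The ES lines were close together, the fibroblast level was 33.8-fold above the highest of them, and the iPS level was below all 3. MICAL2 had the smallest standard error of the 7 genes in the fibroblast comparison (5.22 ± 0.33, adjusted p = 0.00119). In the iPS library 22 counts were found, with a 95% Poisson interval of 2.33 to 5.63 CPM, and the difference of -1.38 ± 0.43 did not pass (unadjusted p = 0.0156, adjusted p = 0.395). MICAL2 (ENSCJAG00000010368) spans 75647599 to 75778451 on the plus strand of chromosome 11.

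Neither of the related MICAL enzymes passed. MICAL1 stood at 96.2 CPM in fibroblasts against 120 ± 59.0 CPM over the 3 ES lines (difference -0.32 ± 0.60 on the log2 scale, adjusted p = 0.744), and MICAL3 at 55.8 CPM against 108, 72.2 and 44.7 CPM (-0.43 ± 0.53, adjusted p = 0.613). MICAL2 accordingly held 70.3% of the length-adjusted level of these 3 enzymes in the fibroblast library, 3.57%, 3.94% and 9.48% in No40, DSY127 and No20, and 1.85% in the iPS library. None of 5 tested genes of the list of MICAL relatives and methionine sulfoxide reductases passed in the fibroblast comparison with edgeR, DESeq2 or limma voom, with 1 at an unadjusted p under 0.05 in edgeR. MICALL1, a MICAL-like adaptor of endosomes, stood at 11.8 CPM in the iPS library and 38.2 ± 7.52 CPM over the ES lines (-1.69, unadjusted p = 0.00917), a difference that only DESeq2 called among the 3 tools.

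**Figure D2:**
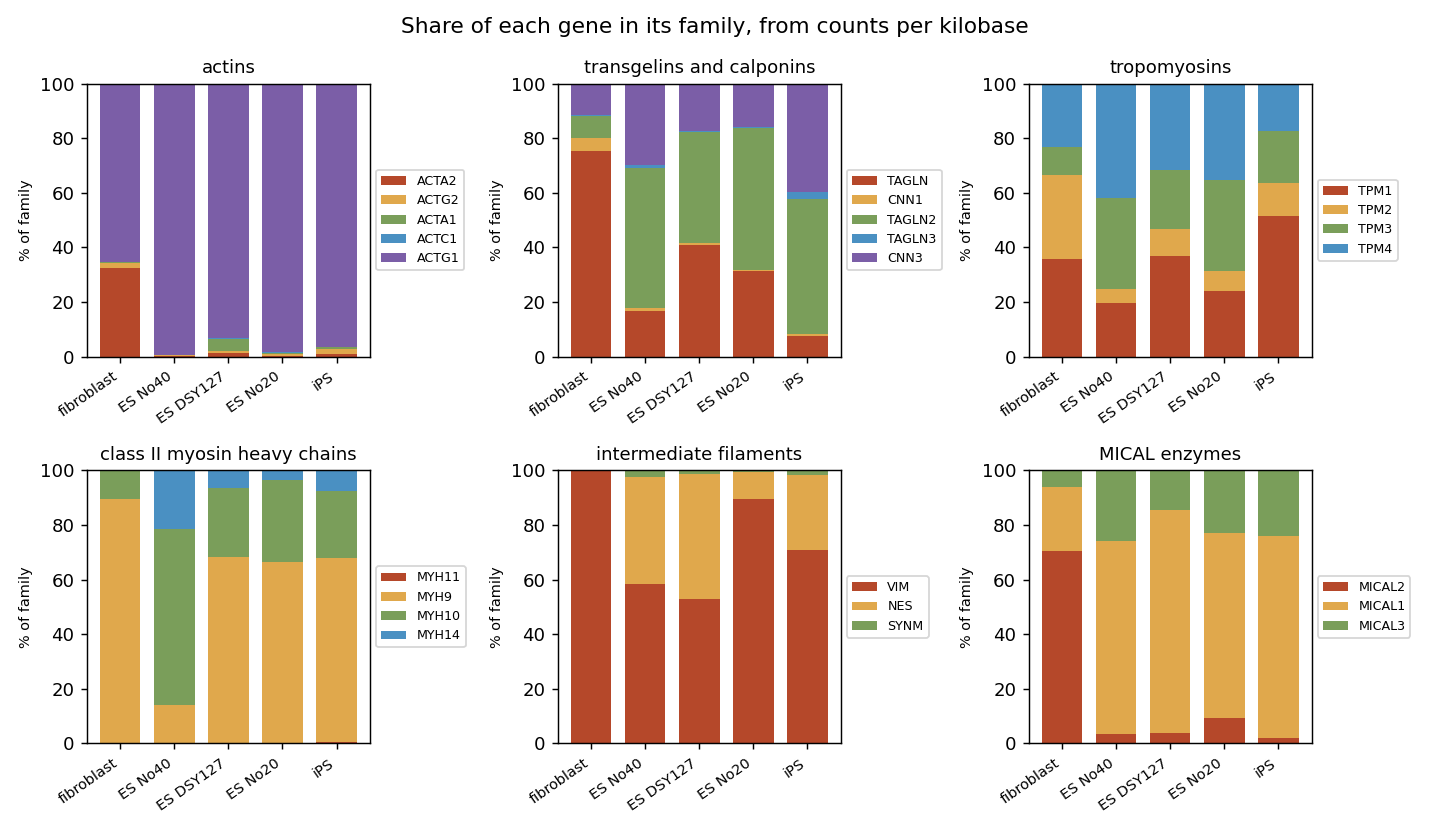
Share of each gene in the summed length-adjusted level (counts per kilobase of gene model) of the genes shown for its family, in percent, with 1 stacked bar per library. The panels do not hold every measured relative. That of intermediate filaments shows VIM, NES and SYNM only, without INA, NEFL, NEFM and KRT7. ACTA2, TAGLN, VIM and MICAL2 take larger shares in the fibroblast library than in any other, TPM1 takes its largest share in the iPS library, and MYH11 is barely visible in all 5.

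Per gene length the 7 genes ran from among the most abundant transcripts to a trace. VIM ranked 5 among the 17462 genes tested in the fibroblast library, TAGLN 12, ACTA2 27, TPM1 114, CNN1 577 and MICAL2 1086, whereas MYH11 ranked 12644. In the iPS library the order was TPM1 (rank 199), VIM (373), TAGLN (2121), ACTA2 (5056), CNN1 (10058), MYH11 (13219) and MICAL2 (13684). VIM and TAGLN led in No40 and No20. In DSY127 TAGLN led with a length-adjusted level of 1069.9, ahead of VIM and TPM1 at 343 each.

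The ES lines differed among themselves more in some of these genes than in others. The highest line exceeded the lowest 4.34-fold for TAGLN and 4.28-fold for ACTA2, ratios that 15.3% and 15.5% of all genes tested exceeded. The ratio was 2.89-fold for VIM, 2.70-fold for TPM1 and 2.10-fold for CNN1. MICAL2 and MYH11 were close to even at 1.31-fold and 1.13-fold. DSY127 was the highest line for ACTA2, TAGLN, CNN1, TPM1 and MICAL2, No20 for VIM and No40 for MYH11. The lead was small for MICAL2 (10.7 CPM against 10.2 CPM in No20) and for MYH11 (1.63 CPM against 1.45 CPM in DSY127). The share of all genes that were highest in each line is not given here. Each line is 1 library, so differences between lines were not tested.

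Against the ES lines, 0 of the 7 genes passed in the iPS library with edgeR, where 0.109% of all genes tested were called. At an unadjusted p under 0.05 there were 4, TPM1 and MYH11 higher and TAGLN and MICAL2 lower. Among all genes tested 8.69% passed that limit, 5.56% higher and 3.13% lower. DESeq2 called 2 of them, TAGLN and MYH11, and 2.70% of all genes to which it gave an adjusted p. Limma voom called none of them and 0.0286% of all genes tested. The iPS library lay outside the range of the 3 ES lines for 5 of the 7 genes, a position held by 58.1% of all genes tested, above for 2 (26.5% of all genes) and below for 3 (31.5% of all genes). Both comparisons share the ES lines, so their values are set side by side without a test between them.

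**Figure D3:**
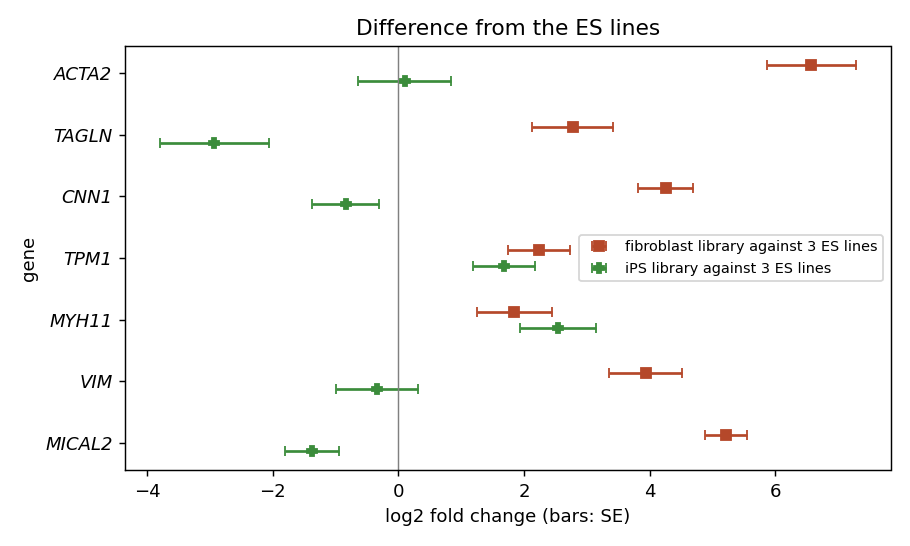
Log2 fold change of the fibroblast library (squares) and of the iPS library (plus signs) against the 3 ES lines for each gene, with bars for the SE. All fibroblast values are above 0, from 1.85 for MYH11 to 6.57 for ACTA2, while the iPS values run from -2.93 for TAGLN to 2.54 for MYH11.

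Set directly against each other without a test, the fibroblast library exceeded the iPS library 97.2-fold in MICAL2, 88.8-fold in ACTA2, 52.1-fold in TAGLN, 34.1-fold in CNN1 and 19.3-fold in VIM. TPM1 differed 1.47-fold, and MYH11 was lower in the fibroblast library (log2 ratio -0.70). The collagens of the fibroblast list fell on both sides of the ES lines in the iPS library, with COL1A1, COL1A2 and COL3A1 above all 3 and COL5A1 and COL6A3 below. COL1A2 stood at 19646 CPM in fibroblasts, 250 ± 19.0 CPM over the ES lines and 3447 CPM in iPS cells. It was the 1 fibroblast marker of 11 to pass in the iPS library with edgeR, where 0.109% of all genes tested were called. That call was lost without No40, as were all others of the iPS comparison. Limma voom also called COL1A2 alone of these markers, while DESeq2 called COL1A1, COL1A2 and FAP. COL1A1 stood at 4922 CPM in the iPS library (log2 fold change 2.51, unadjusted p = 0.00080 with edgeR). COL3A1 stood at 1684 CPM in the iPS library against 109 ± 117 CPM over the ES lines (3.95, unadjusted p = 0.00601). COL5A1 stood at 2989 CPM in fibroblasts, 44.1 to 188 CPM over the ES lines and 37.0 CPM in iPS cells, and COL6A3 stood at 1149.9 CPM, 78.5 to 149 CPM and 60.9 CPM. The proteoglycan DCN stood at 6.59 CPM in the iPS library and at 11.2 ± 1.93 CPM over the ES lines. Over the 11 fibroblast markers the median iPS log2 fold change was -0.000505, with 5 above 0. Over all genes tested the median was -0.11, with 7577 of 17462 above 0. The iPS library lay above all 3 ES lines for 5 of the markers, which were COL1A1, COL1A2, COL3A1, FBN1 and FAP. It lay below for 5, which were COL5A1, COL6A3, DCN, PDGFRA and PDGFRB. Of all genes tested 26.5% lay above and 31.5% below. The summed level of the 11 markers was 68282 CPM in fibroblasts, 1149 to 2288 CPM over the ES lines and 10408 CPM in iPS cells. Of the iPS sum, 10054 CPM came from COL1A1, COL1A2 and COL3A1, and the other 8 markers summed to 354 CPM, against 349.6 to 569 CPM over the ES lines. The split was made after the values were seen. Those 8 include FBN1 and FAP, which lay above all 3 ES lines, so their sum does not place each of them at the ES level. The part of these levels in the iPS values of TPM1 and MYH11 was not tested.

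By the root mean square difference of centred log2 CPM over the 5 libraries, CNN1 and MICAL2 had the most alike patterns among the 7 genes, at 0.58, followed by MYH11 and TPM1 at 0.65. ACTA2 and MYH11 were the least alike, at 2.46. Among 11463 other genes with a symbol, the patterns most like CNN1 were those of ITPKB (0.16), CLEC11A (0.22) and CRIM1 (0.24). CRIM1, a membrane protein that binds bone morphogenetic proteins, stood at 959.8 CPM in fibroblasts, 45.6 to 70.9 CPM over the ES lines and 42.8 CPM in iPS cells. MICAL2 was most like CTSK, CRYAB and VCAN (0.26, 0.26 and 0.30). CTSK, the collagen-degrading cathepsin K, stood at 216, 3.05 to 5.03 and 2.03 CPM in the fibroblast, ES and iPS libraries. ACTA2 was most like ATP8B1, CDH13 and GPNMB (0.42, 0.49 and 0.49). TPM1 was most like DUOX2, ATG4A and MARCHF3 (0.17, 0.34 and 0.36), and MYH11 was most like ZFP91, MBNL2 and NEDD4 (0.17, 0.22 and 0.23). MBNL2, a splicing regulator, stood at 155 CPM in fibroblasts, 28.3 to 42.1 CPM over the ES lines and 234 CPM in iPS cells. The genes most like VIM were INSYN2B, FMO2 and PAM (0.17, 0.21 and 0.22), and those most like TAGLN were ISG15, SHTN1 and FYB1 (0.25, 0.32 and 0.33). INSYN2B, FMO2, ISG15, FYB1 and DUOX2 stood at 2.10 CPM or less in every library, so their patterns rest on few counts. CRYAB and SHTN1 stood at 0.169 and 0.338 CPM in the iPS library, below the 0.507 CPM of 3 counts there. Their iPS values rest on few counts too.

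Other genes of the contractile apparatus were read in lists of names. Over all genes tested, 8.80% were called higher and 9.28% lower in the fibroblast library. In a list of smooth muscle genes and their calponin and transgelin relatives, 4 of 10 genes tested rose and 6 did not pass, with a median log2 fold change of 1.53. The 6 were MYL9, MYLK, SMTN and the relatives CNN3, TAGLN2 and TAGLN3, and none of these relatives is particular to smooth muscle. SYNPO2, a Z-disc and actin-bundling protein, stood at 67.8 CPM against 1.76 ± 0.738 CPM and rose (5.26 ± 0.57, adjusted p = 0.0030). CALD1, caldesmon, rose from 443 ± 136 to 1643 CPM (1.89 ± 0.40, adjusted p = 0.0216), beside TPM2 and ACTG2 above. MYL9, the regulatory light chain of smooth muscle and non-muscle myosin, stood at 235 CPM against 296 ± 78.5 CPM and did not pass (-0.33 ± 0.40, adjusted p = 0.604). MYLK, the kinase that activates it, stood at 42.6 against 7.38 ± 5.16 CPM (2.53 ± 0.82, adjusted p = 0.0793). Of 8 cytoplasmic actin, myosin and tropomyosin genes, TPM4 rose, MYH14 and MYL6 fell and 5 did not pass. MYL6, an essential light chain, stood at 0.0840 CPM in fibroblasts against 2.23 to 12.8 CPM over the ES lines, low for a gene known to be abundant in most cells, and it did not pass without No40 or with limma voom.

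Genes of stress fibres and focal adhesions rose in 15 of 26 cases tested, none fell, and the median log2 fold change was 1.70. Of all genes tested 8.80% were called higher. TLN1, talin, which links integrins to actin, stood at 2117 CPM against 286 ± 6.92 CPM (2.89 ± 0.28, adjusted p = 0.00233). TNS1, a tensin of mature adhesions, stood at 163 against 5.81 ± 2.07 CPM (4.81 ± 0.46, adjusted p = 0.00233), and the filamin FLNC at 1349 against 86.8 ± 27.1 CPM (3.96 ± 0.40, adjusted p = 0.00257). PARVA, a partner of integrin-linked kinase, rose by 2.89 ± 0.32. Without No40, 5 of the 15 calls were lost, those of VCL, PXN, ILK, LIMA1 and TGFB1I1, and 11 genes of the list passed. With total counts 10 passed. In the iPS library none of the 26 passed with edgeR, DESeq2 or limma voom, 5 were lower and 0 higher at an unadjusted p under 0.05, and the median was -0.64. At that limit 3.13% of all genes tested were lower and 5.56% higher.

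Among regulators, SRF itself did not pass (103 against 65.3 ± 10.1 CPM, log2 fold change 0.66 ± 0.35, adjusted p = 0.232), nor did MRTFB. MYOCD, which encodes myocardin, stood at 89.0 CPM in fibroblasts, 0.445 to 2.24 CPM over the ES lines and 0.338 CPM in iPS cells, and rose (6.12 ± 0.76, adjusted p = 0.00425). The SRF targets FOS and VCL rose with the matricellular gene CCN1 (2.62 ± 0.39), making 4 of 9, beside 8.80% of all genes tested. The lists overlap: VCL is also counted in the stress fibre list, and CCN1 again in the YAP and TEAD list. The calls of FOS and VCL were lost without No40 or with total counts, leaving 2, and that of VCL also without DSY127 or with upper-quartile factors. Of 13 genes tested of the YAP and TEAD list 5 rose: WWTR1 (2.76 ± 0.41), which encodes the coactivator TAZ, CCN1, LATS2, AMOTL2 and ANKRD1. YAP1 stood at 116 against 121 ± 48.9 CPM (-0.06 ± 0.52, adjusted p = 0.950). ANKRD1, a stretch-responsive target, stood at 293 CPM in fibroblasts, 10.4 to 41.4 CPM over the ES lines and 1.69 CPM in iPS cells (iPS log2 fold change -4.09, unadjusted p = 0.00557, called by DESeq2 but not by edgeR or limma voom).

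Genes of the TGF-beta pathway rose in 9 of 16 cases tested, beside 8.80% of all genes tested. Their median log2 fold change was 2.16, and none was called lower. THBS1, a matrix protein that can activate latent TGF-beta, stood at 5282 against 155 ± 28.4 CPM (5.09 ± 0.32, adjusted p = 0.00119). The receptor gene TGFBR2 stood at 238 CPM against 1.67 to 4.35 CPM (6.12 ± 0.54, adjusted p = 0.00199), and LTBP2, a matrix protein related to the latent TGF-beta binding proteins, at 88.1 against 3.79 ± 1.16 CPM (4.54 ± 0.45, adjusted p = 0.00251). TGFBR2 stood at 3.38 CPM in the iPS library, within the ES range. TGFB1, TGFB2, TGFB3, TGFBR3 and TGFBI also rose, the calls of TGFB2 and TGFBI being lost without No40 and that of TGFB2 also with upper-quartile factors or total counts.

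**Figure D4:**
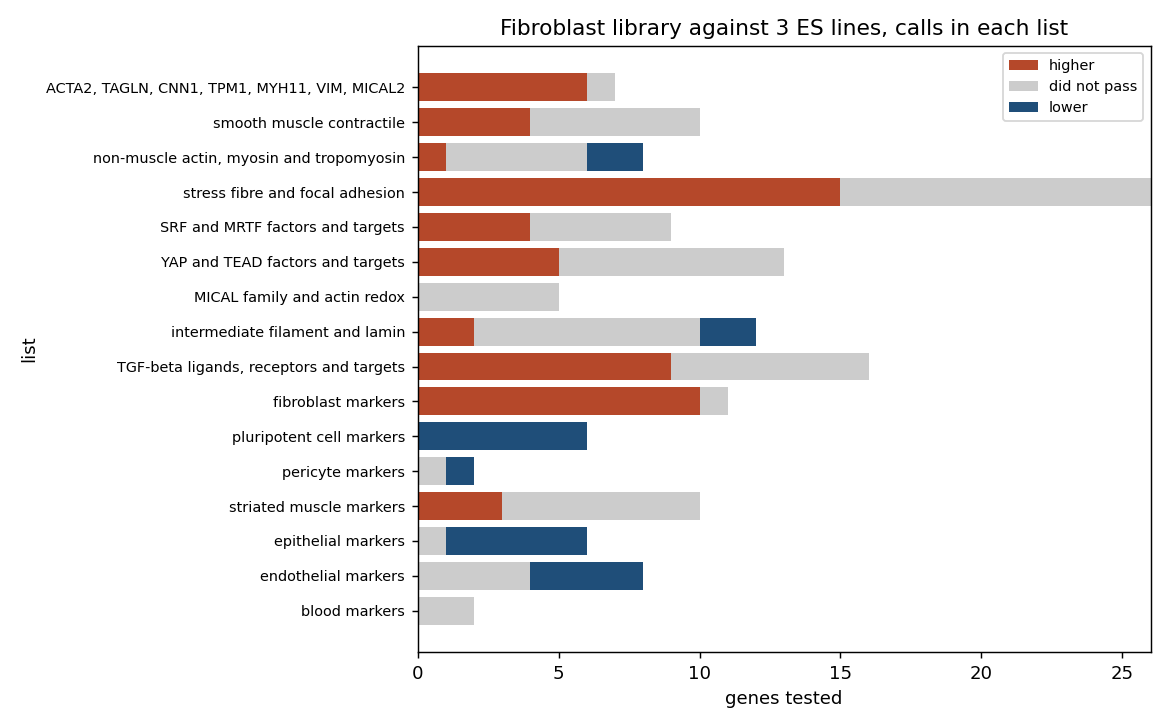
Number of genes tested in each list shown that were higher, lower or did not pass in the fibroblast library against the 3 ES lines (edgeR, adjusted p under 0.05). All calls of the stress fibre and TGF-beta lists are higher, and those of the pluripotent, epithelial and endothelial lists are lower.

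Markers of other contractile cell types were read beside these genes. Of 18 entries for striated muscle 11 matched, and their summed level was 48.7 CPM in fibroblasts, 24.6 to 177 CPM over the ES lines and 34.7 CPM in iPS cells. MYOD1, MYOG and TTN rose among 10 tested, at 1.28, 2.10 and 7.25 CPM in the fibroblast library, none of the 3 passed without No40, and MYOD1 did not pass with DESeq2. MYF5 had no count in the fibroblast, No40, No20 and iPS libraries. Of 8 pericyte entries 2 matched, with 59.2 CPM in fibroblasts, 137 to 202 CPM over the ES lines and 128 CPM in iPS cells. MCAM fell (-2.70 ± 0.67, adjusted p = 0.0370), but not without No40 or with limma voom, and NOTCH3 did not pass. Endothelial markers fell in 4 of 8 genes tested, and the 2 blood markers tested did not pass. Of all genes tested 8.80% were called higher and 9.28% lower. The part of any such cells in the levels of the 7 genes was not tested.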

How the data were processed

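RNA sequencing was read in 5 libraries. Per gene, the authors deposited raw counts of reads as 1 series table and again as 1 file per library. All 154055 values were identical in both. RNA was extracted with a Qiagen kit, per the labels' protocols. The submitters' processing notes list STAR 2.5.3a, featureCounts 1.5.2 and Trim Galore 0.4.0, without role or order. No genome build, strand setting or rule for reads matching several genes is given in those sources. Of 30811 identifiers, 12660 (41.1%) matched a symbol. Genes of lists without a match were not analysed here, and some genes and 1 list are not reported here.

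The tests ran in edgeR 4.0.16 under R 4.3.3: filterByExpr (17462 genes kept), TMM factors (0.813 for the fibroblast library, 1.03 to 1.07 for the others), 1 quasi-likelihood fit of the 5 libraries with 3 groups and 2 residual degrees of freedom, and Benjamini-Hochberg adjustment over all genes tested. The common coefficient of variation was 0.458. Each lone library is taken to vary as the ES lines do, and nothing says that the p-values measure more than the spread between these lines. Standard errors are the fold change divided by the root of the F statistic. Log2 CPM used a prior count of 2. Poisson intervals (95%, exact) cover counting error only. Alternatives used DESeq2 1.42.0, limma 3.58.1 (voom), other factors and filters, the compared groups alone and leaving out each ES line.

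The 7 genes and all lists were chosen with earlier results of these data known. Genes were named by a rule: the 7 genes, in each list the up to 4 called genes of lowest adjusted p, the 3 genes with a symbol nearest each of the 7 in pattern, and POU5F1, NANOG, COL1A1 and COL1A2 as checks, of which those needed are printed. Other list genes, and the grouping into families, were chosen after their values were seen. In simulated counts (17040 genes in the fibroblast comparison, 17000 in the iPS comparison), the test called 74% and 76% of the genes changed 16-fold and 6% of those changed 4-fold in each, with 1 and 7 false calls. Only 100 genes were changed at each fold, and all libraries were drawn from mean ES levels with the common coefficient of variation. The real fibroblast comparison called 3157 genes, so these rates do not carry over to it. They also take the lone libraries to vary as the ES lines do.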

Additional observations from a re-analysis of the deposited data

How the results depend on the processing

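No paired analysis was possible because the labels give no replicate numbers that groups share. ACTA2, TAGLN, CNN1, TPM1, VIM and MICAL2 kept their rise and their call in the fibroblast library under all 11 alternatives. The calls of TAGLN and TPM1 came close to the limit with total counts (edgeR, adjusted p = 0.0489 and 0.0462). MYH11 passed there with DESeq2 alone. The 3157 genes called in the fibroblast comparison became 4773 with DESeq2 and 1742 to 4550 when an ES line was left out, lowest without No40. The 19 of the iPS comparison became 204 with no filter on low counts, 416 with DESeq2, 5 with limma voom and 0 to 268 when an ES line was left out. The causes were not tested. Of the 7 genes, 2 were called in the iPS comparison with DESeq2 and 0 with every other alternative. In the iPS comparison the log2 fold change of ACTA2, 0.10 with all lines, ran from -0.25 to 0.86 when an ES line was left out (-0.06 without No40), and that of VIM, -0.33 with all lines, from -0.62 to 0.38, changing sign without No20. Among list counts that moved by over 1.5 times, genes called higher with total counts went from 4 to 2 in the SRF and MRTF list and from 1 to 0 in the cytoplasmic actin and myosin list, for which DESeq2 gave 2. The shallow iPS library limits MYH11, CNN1 and MICAL2, with 52, 46 and 22 counts.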

Other observations

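Genes of the same lists that stood apart in 1 ES line, picked after their values were seen, add to the variation between lines. KRT7, a keratin of simple epithelia, stood at 241 CPM in DSY127, 14.2 CPM in No40 and 11.8 CPM in No20. ACTA1, skeletal muscle actin, stood at 126 CPM in DSY127 and at 12.4 and 16.3 CPM in No40 and No20. The neurofilament gene NEFM stood at 13.1 CPM in No40 and at 171 and 136 CPM in DSY127 and No20. These differences between single libraries were not tested.

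In the iPS library, FAP, a surface protease of activated fibroblasts, stood at 13.7 CPM against 0.589 ± 0.641 CPM for the 3 ES lines (difference 4.53 on the log2 scale, unadjusted p = 0.0027), while TGFBI, a TGF-beta induced matrix protein, stood at 5.75 against 71.6 ± 57.9 CPM (-3.64, unadjusted p = 0.0188). Neither passed after adjustment with edgeR or limma voom, and both did with DESeq2. TGFB3, a TGF-beta ligand, went the other way from TGFBI, at 29.9 against 10.2 ± 2.12 CPM (1.56). Of 16 genes tested in the TGF-beta list, 1 was higher and 3 lower in the iPS library at an unadjusted p under 0.05 (edgeR). Of all genes tested 5.56% were higher and 3.13% lower at that limit.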
